A study of Arabidopsis thaliana with 6 samples.

Results

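The genes described here are 10 Arabidopsis thaliana genes of protein folding in the endoplasmic reticulum and of its stress response. They were chosen by gene identifier: the HSP70 chaperones BIP1, BIP2 and BIP3, the HSP90 chaperone SHD (HSP90.7), the lectin chaperones CNX1, CRT1 and CRT2, the disulfide isomerase PDIL1-1, and the transcription factors BZIP28 and BZIP60. All 10 were among the 24267 genes with counts, and all 10 passed the filter on low counts that 21355 genes passed. Transcripts were measured by RNA sequencing in 6 libraries, 2 for each of 3 groups of wild-type (Col) seedlings. Seedlings aged 4 days were moved for 72 h to medium with 3% sucrose and, in every group, ethanol at 0.1%. The medium also held the auxin IAA (indole-3-acetic acid) at 1 nM, melatonin (MT) at 10 nM, or, for the control, neither. Days had 16 h of light. The control titles call that group untreated, and the series' design text names rosette leaves where the sample labels name seedlings. Whether replicate libraries came from separate plants or cultures is not stated, so every p-value rests on a spread between samples that may be technical.

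Secreted and membrane proteins fold in the endoplasmic reticulum, where BiP holds unfolded chains, calnexin and calreticulin bind chains through their sugars, and disulfide isomerases pair cysteines. When unfolded protein builds up, the unfolded protein response raises these helpers through 2 routes in plants. In the first, BZIP28, a factor anchored in the membrane, moves to the Golgi, where the protease S2P, and reportedly S1P, free it. In the second, the sensor kinase IRE1 cuts a short piece out of BZIP60 mRNA, so that an active factor is made. Transcripts of BIP3 are known as a sensitive mark of this response in Arabidopsis, while BIP1 and BIP2 are made in unstressed plants.

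With MT, BZIP60 rose 1.35-fold, and it was the only one of the 10 genes to pass the test (edgeR's quasi-likelihood test, adjusted p under 0.05), which 7.65% of all genes tested passed. SHD and BIP3 had values of 1.2-fold and 2-fold with MT that did not pass, and the other 7 genes 1.05-fold to 1.13-fold. With IAA 0 of the 10 genes passed, against 0.332% of all genes, and their values ran from 0.958-fold to 1.13-fold.

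Library totals ran from 35953236 to 46076624 counts, and the 10 genes together took 0.186 to 0.217% of them. All 9 root marker genes listed had counts in every library, and of 8 shoot markers at least 7 did, the meristem gene CLV3 being at 0 in 4 libraries. The summed level of the root markers was 132 to 162 CPM in the control, 156 to 164 with IAA and 130 to 132 with MT. Without the Rubisco gene RBCS1A the shoot markers summed to 309 to 331 CPM in the control, 492 to 552 with IAA and 826 to 835 with MT. With it they summed to 12500 to 13100, 9670 to 10200 and 11500 to 12000 CPM. In edgeR's test 2 of the 7 shoot markers tested rose with MT, the antenna genes LHCB1.1 and LHCB1.2, and 0 fell. LHCB1.2 also rose with IAA, the only 1 of the 7 to pass there. The list went both ways: with MT 3 of the 7 had a log2 fold change above 0, and its median was -0.18. In such whole-seedling RNA, fewer cells of a type and less RNA per cell cannot be told apart.

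The unfolded protein response acts through short promoter motifs, so the sequence around the start of each gene was read from the RefSeq TAIR10.1 genome, from 250 bases before to 50 bases after the annotated gene start. The build behind the counts is not given in the sources used here, and the coordinates below are those of TAIR10.1. Motifs were searched on both strands. ERSE-I is CCAAT and CACG with 10 bases between them. ERSE-II is ATTGG and CCACG with 1 base between them. UPRE was searched as TGACGTGG and as TGACGTGA, and the G-box, which many plant bZIP factors bind, as CACGTG. Shown are BIP3, SHD and CRT1, whose windows hold ERSE-I, and BZIP60, the gene that rose, whose window holds a G-box and none of the other motifs. The windows follow annotated gene starts, so a motif missing from a window may lie outside it. In the BZIP60 window an ATG stands within a few bases of the annotated start, which may not be where transcription begins. Capitals mark the fixed bases of each match.
BIP3 (chr1:2931801-2932100, minus strand): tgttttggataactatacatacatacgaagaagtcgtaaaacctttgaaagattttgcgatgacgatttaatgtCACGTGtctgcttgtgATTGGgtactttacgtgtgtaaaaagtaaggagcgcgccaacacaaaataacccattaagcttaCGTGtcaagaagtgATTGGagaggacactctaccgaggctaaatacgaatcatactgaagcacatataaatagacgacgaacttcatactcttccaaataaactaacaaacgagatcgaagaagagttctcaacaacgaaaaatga
SHD (chr4:12556009-12556308, minus strand): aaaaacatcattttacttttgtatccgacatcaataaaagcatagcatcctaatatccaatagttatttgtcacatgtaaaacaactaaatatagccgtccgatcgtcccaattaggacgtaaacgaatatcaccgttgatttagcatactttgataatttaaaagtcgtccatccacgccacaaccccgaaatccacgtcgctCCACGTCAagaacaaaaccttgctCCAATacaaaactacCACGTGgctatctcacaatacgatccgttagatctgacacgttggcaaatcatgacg
CRT1 (chr1:21092660-21092959, minus strand): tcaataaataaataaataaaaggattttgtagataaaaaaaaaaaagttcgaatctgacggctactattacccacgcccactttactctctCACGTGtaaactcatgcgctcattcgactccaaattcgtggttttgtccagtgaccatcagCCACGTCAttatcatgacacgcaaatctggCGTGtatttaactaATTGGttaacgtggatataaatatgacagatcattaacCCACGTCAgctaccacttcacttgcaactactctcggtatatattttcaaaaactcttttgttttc
BZIP60 (chr1:16137414-16137713, minus strand): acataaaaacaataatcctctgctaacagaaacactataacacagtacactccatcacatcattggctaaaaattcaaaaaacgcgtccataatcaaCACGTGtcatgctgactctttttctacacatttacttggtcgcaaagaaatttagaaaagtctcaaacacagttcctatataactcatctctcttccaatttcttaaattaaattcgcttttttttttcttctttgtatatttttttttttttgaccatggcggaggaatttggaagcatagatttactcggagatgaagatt

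In these windows the BIP3 promoter has ERSE-I matches at bases -174 to -156 and -96 to -78 from the start, the first overlapping a G-box. SHD has a UPRE at -46 to -39 and an ERSE-I at -22 to -4 that overlaps a G-box. CRT1 has an ERSE-I at -68 to -50 and UPRE matches at -98 to -91 and -16 to -9, besides a G-box at -159 to -154. Over the 10 genes, 5 windows held ERSE-I (BIP3, SHD, CNX1, CRT1, PDIL1-1), against 9 of 53 other pathway genes and 0.849% of 27443 such windows in the genome. UPRE as TGACGTGG was found in 5 (BIP2, SHD, CNX1, CRT1, PDIL1-1), against 1.51%, and as TGACGTGA in 0, against 0.67%. ERSE-II was found in BIP2 alone, where it overlaps the UPRE match, against 0.0692%. In CNX1 the UPRE overlaps the ERSE-I. A G-box was found in 6 (BIP3, SHD, CRT1, PDIL1-1, BZIP28, BZIP60), against 7.68%, and that of PDIL1-1 overlaps an ERSE-I. BIP1 and CRT2 had none of the motifs in this window. The end of the BIP1 window is alike to bases of the BIP2 window that lie before its ERSE-II and UPRE. The BIP1 bases matching that BIP2 site were therefore outside the window searched, so the 2 windows do not compare the genes at that site. ERSE-I is known from promoters of such chaperone genes, so its share here is a description of known targets.

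**Figure D1:**
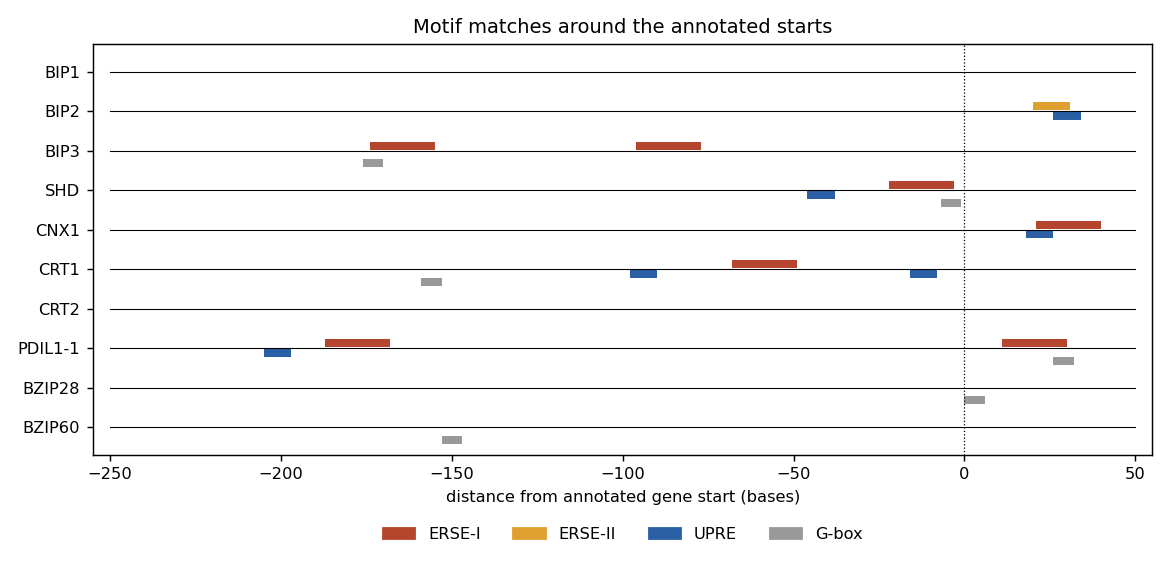
Matches of 4 motifs in the windows of the 10 genes, with distance in bases from the annotated gene start on the x axis and 1 line per gene. Bars span each match on either strand. ERSE-I lies in 5 windows, and the BZIP60 window holds only a G-box, at -153 to -148.

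BIP1 (AT5G28540) and BIP2 (AT5G42020), the abundant BiP genes, are close copies: their coding sequences shared 95.8% of aligned bases, and BIP3 (AT1G09080) shared 70.4% with BIP1 and 69.8% with BIP2. The last 60 coding bases, stop codon included, show this, with capitals where the 3 genes are not all the same.
BIP1: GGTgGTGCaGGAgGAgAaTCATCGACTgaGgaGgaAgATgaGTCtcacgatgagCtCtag
BIP2: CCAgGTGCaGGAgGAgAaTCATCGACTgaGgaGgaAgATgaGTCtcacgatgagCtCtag
BIP3: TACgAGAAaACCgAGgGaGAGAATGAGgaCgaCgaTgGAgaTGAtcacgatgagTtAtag
In this stretch BIP2 differed from BIP1 at 3 bases and BIP3 from each at 32. Of all windows of 50 bases in the transcript, 22.9% of those of BIP1 and 24.8% of those of BIP2 occurred in the other gene, and for windows of 100 bases 8.70% and 9.45%. Reads from these stretches cannot be placed with certainty, so the single levels of BIP1 and BIP2 are uncertain. Among the other members only CRT1 and CRT2 shared windows of 50 bases, 3 each, and no member overlaps another gene model.

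Scaled by exon length, SHD stood highest in the control at 129 ± 0.963 RPKM (mean ± SD, n = 2, exon length from TAIR10.1). CRT1, PDIL1-1, BIP1, BIP2 and CNX1 followed at 110 to 113 RPKM. The PDIL1-1 libraries alone spanned 109 to 117 RPKM, which covered the other 4, so no full order of these 5 could be given. If reads shared by BIP1 and BIP2 were dropped, their levels are too low here, so their place below SHD is uncertain in each group. CRT2 had 72.5 ± 5.77, BZIP60 34.9 ± 0.502 and BZIP28 18.1 ± 0.327 RPKM. BIP3 was far below, at 0.535 ± 0.0434 RPKM. With IAA the order at the top was SHD (134 to 147), CRT1 (124 to 131) and PDIL1-1 (122 to 126 RPKM), of which the latter pair overlapped. With MT SHD had 154 to 156 RPKM, CRT1, BIP2, PDIL1-1 and BIP1 overlapped between 120 and 127, and CNX1 had 118 to 119. CRT2, BZIP60, BZIP28 and BIP3 kept this order in each group, with no overlap between neighbours. All further levels are read counts relative to library size (CPM), with TMM scaling, and do not account for length.

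BIP1 had control levels of 315 and 312 CPM, then 328 and 317 with IAA, and 340 and 345 with MT. BIP2 had 311 and 296 CPM in the control, 332 and 317 with IAA, and 335 and 330 with MT. For both genes the libraries of either treatment lay above those of the control, 1.03-fold and 1.07-fold on average with IAA and 1.09-fold and 1.1-fold with MT. The log2 fold change with MT was 0.13 ± 0.08 (SE) for BIP1, with a 95% interval of -0.06 to 0.31 and adjusted p = 0.369. Adjusted p-values come from edgeR's quasi-likelihood test unless another is named. BIP2 had the same estimate, 0.13 ± 0.08 (-0.06 to 0.33, adjusted p = 0.365). With IAA the values were 0.04 ± 0.08 for BIP1 (adjusted p = 0.857) and 0.10 ± 0.08 for BIP2 (0.635). Summing the counts of both genes, which sets aside how their shared reads were placed between them, gave 0.13 ± 0.08 with MT (adjusted p = 0.359) and 0.07 ± 0.08 with IAA (0.741).

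BIP3 was near the bottom of the range. Its counts were 43 and 40 in the control, 49 and 51 with IAA, and 112 and 55 with MT, or 1.2, 1.07, 1.1, 1.07, 3.17 and 1.39 CPM. MT replicate 1 stood well above the other 5 libraries, and MT replicate 2 slightly above the control libraries. The log2 fold change with MT was 1.00 ± 0.42, with an interval from 0.01 to 1.99, and did not pass (unadjusted p = 0.0489, adjusted p = 0.196). Without MT replicate 1 it was 0.30 (adjusted p = 0.705), and without MT replicate 2 it was 1.49 (0.0574), so the value rests on MT replicate 1. MT over IAA gave 1.06 ± 0.41 (adjusted p = 0.26), and IAA over control -0.06 ± 0.42 (-1.07 to 0.95, adjusted p = 0.963). That interval is wide, running from 0.476-fold to 1.93-fold, so smaller changes of BIP3 with IAA were not detectable in this fit. The SE of 0.42 comes from a spread shared with the MT libraries, and it was 0.32 with only the control and IAA libraries in the fit.

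SHD (AT4G24190), the HSP90 of the endoplasmic reticulum, which folds a small set of clients such as CLAVATA proteins, had 393 and 389 CPM in the control, 447 and 407 with IAA, and 467 and 473 with MT. The 3 groups did not overlap, in the order control, IAA, MT. With MT the log2 fold change was 0.26 ± 0.09 (0.06 to 0.47), with an unadjusted p of 0.0184 and an adjusted p of 0.114. DESeq2 called it (0.27 ± 0.09, adjusted p = 0.0169). IAA over control gave 0.13 ± 0.09 (adjusted p = 0.552) and MT over IAA 0.14 ± 0.09 (0.462).

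CNX1 (AT5G61790), a calnexin of the membrane, had 238 and 241 CPM in the control, 252 and 248 with IAA, and 257 and 259 with MT. The calreticulin CRT1 (AT1G56340) had 210 and 209 CPM in the control, 242 and 230 with IAA, and 223 and 234 with MT. CRT2 (AT1G09210), the second calreticulin, had 169 and 151 CPM in the control, 178 and 171 with IAA, and 184 and 177 with MT. In all 3 genes each treated library lay above the control libraries, and for CRT1 and CRT2 the IAA and MT libraries overlapped. CNX1 had 0.11 ± 0.08 with MT (adjusted p = 0.437) and 0.06 ± 0.08 with IAA (0.756). CRT1 had 0.13 ± 0.08 with MT (0.378) and 0.17 ± 0.08 with IAA (0.394). CRT2 had 0.18 ± 0.09 with MT (0.268) and 0.13 ± 0.09 with IAA (0.56). None of these values passed, and the intervals reached at most 0.39 with MT and 0.36 with IAA.

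PDIL1-1 (AT1G21750), which forms and shuffles disulfide bonds, had 234 and 219 CPM in the control, 252 and 244 with IAA, and 241 and 248 with MT. The treated libraries lay above the control ones and overlapped each other. Its log2 fold changes were 0.11 ± 0.08 with MT (adjusted p = 0.453) and 0.13 ± 0.08 with IAA (0.518).

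**Figure D2:**
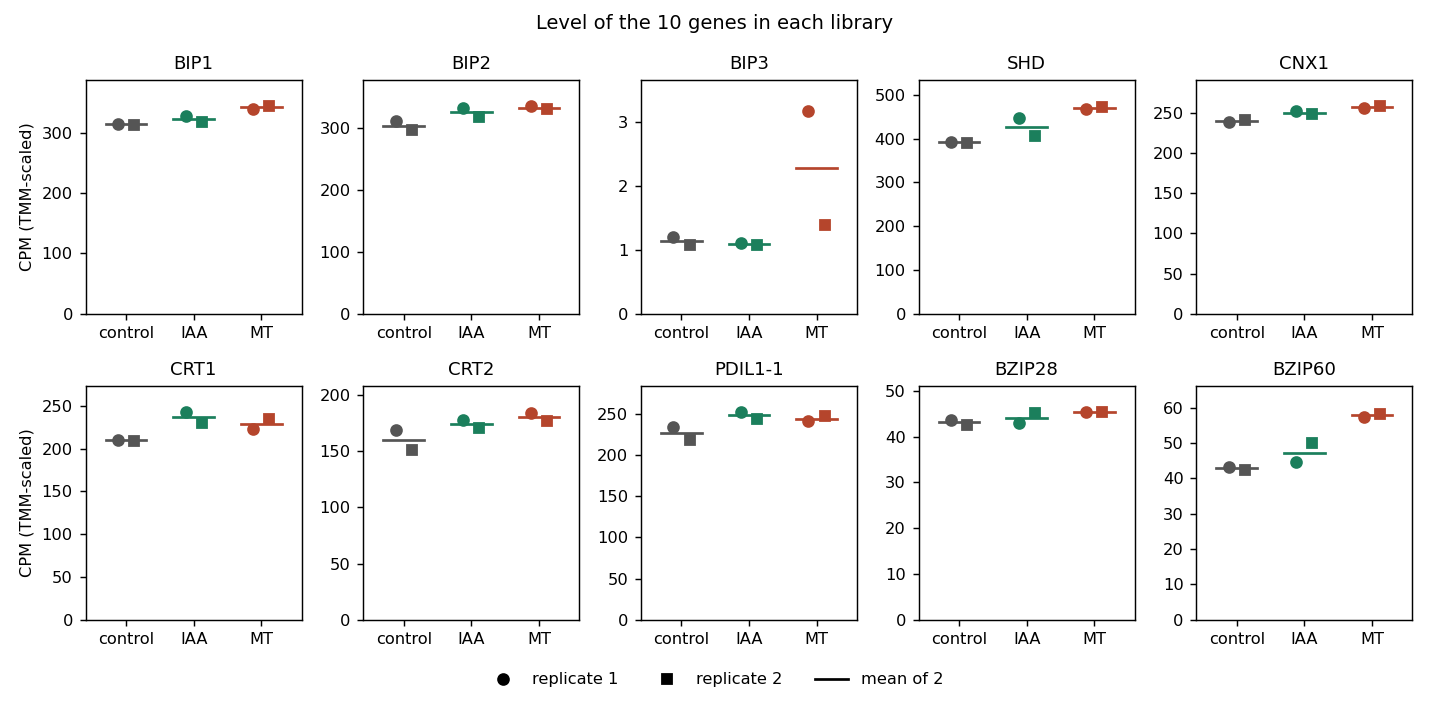
TMM-scaled CPM of the 10 genes in each of the 6 libraries, with 1 panel per gene and its own y axis starting at 0; circles are replicate 1, squares replicate 2, and lines the mean of 2 libraries. BZIP60 is at 57.3 and 58.3 CPM with MT and 42.5 to 49.9 elsewhere, and for BIP3 MT replicate 1 stands apart at 3.17 CPM.

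Both transcription factors had values above 0 with MT, of which only that of BZIP60 passed, and these genes were not tested against each other. BZIP60 (AT1G42990) had 43.4 and 42.5 CPM in the control, 44.7 and 49.9 with IAA, and 57.3 and 58.3 with MT. The MT libraries lay above all 4 others, and the IAA libraries above the control ones. BZIP60 rose with MT from 42.9 ± 0.618 to 57.8 ± 0.687 CPM (mean ± SD, n = 2), a log2 fold change of 0.43 ± 0.08 (0.24 to 0.62, adjusted p = 0.0272). DESeq2 gave 0.43 ± 0.11 (adjusted p = 0.00122). The call was lost when any control or MT library was left out, with adjusted p from 0.0744 to 0.111, while the estimate stayed between 0.42 and 0.45. Over the alternatives run, it ranged from an adjusted p of 0.00122 to 0.111. MT over IAA was 0.29 ± 0.08 (unadjusted p = 0.00926, adjusted p = 0.164), and IAA over control 0.14 ± 0.08 (adjusted p = 0.486). Beside this result, the shoot markers summed to 12500 to 13100 CPM in the control and 11500 to 12000 with MT (median log2 fold change -0.18), and only the antenna genes LHCB1.1 and LHCB1.2 passed. Without RBCS1A these sums were 309 to 331 CPM in the control and 826 to 835 with MT. The root markers had 132 to 162 CPM in the control and 130 to 132 with MT. The part of the antenna genes' rise in the result was not tested. Counts per gene do not separate the spliced from the unspliced BZIP60 transcript, so they do not show how much of the active form was made.

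BZIP28 (AT3G10800) had 43.7 and 42.6 CPM in the control, 43.0 and 45.1 with IAA, and 45.5 and 45.3 with MT. Its libraries spanned a narrow range, in which IAA and control overlapped. The values were 0.07 ± 0.07 with MT (-0.10 to 0.25, adjusted p = 0.575) and 0.03 ± 0.07 with IAA (-0.14 to 0.20, 0.88). Since this factor is activated by cleavage of its protein, its transcript level does not report its activity.

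Over the whole table, 7.65% of the genes tested passed with MT, 3.99% higher and 3.65% lower, against 1 of 10 here, which was higher. With IAA 0.332% passed, 0.272% higher and 0.0609% lower, against 0 of 10. For MT over IAA 0.173% passed, 0.089% higher and 0.0843% lower, against 0 of 10. In edgeR's test an unadjusted p under 0.05 was reached by 3 of the 10 genes with MT (25.2% of all genes), 0 with IAA (14.3%) and 2 with MT over IAA (17.4%). DESeq2 called 2 of 10 with MT, where it called 14.2% of the genes it gave an adjusted p, 0 of 10 with IAA (3.66%), and 0 of 9 for MT over IAA (7.12%), where BIP3 had no adjusted p. So with either tool the count of called members was near what the share of all genes gives.

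The direction was more uniform than the calls. Both MT libraries lay above both control libraries in 10 of 10 genes, which held for 27.8% of all genes tested, while 27.7% lay below and 0 of the 10 did. Both IAA libraries lay above both control libraries in 8 of 10, against 23.6% of all genes, and below in 0, against 24.8%, with BIP3 and BZIP28 overlapping. MT lay above IAA in 6 of 10, against 24.3%, and below in 0, against 26.1%. The log2 fold change was above 0 in 10 of 10 genes with MT (50.2% of all genes), 9 with IAA (50.1%) and 8 for MT over IAA (49.2%). For MT over IAA, the genes other than BIP3 and BZIP60 had values from -0.05 (CRT1) to 0.14 (SHD), with adjusted p from 0.462 to 0.923. With the other scalings the count for MT over control was 10 of 10 each time, while without scaling factors that for IAA over control was 9 of 10 and MT lay above IAA in 4 and below it in 2. The median log2 fold change of the 10 genes was 0.13 with MT and 0.11 with IAA, beside 0.00174 and 0.000426 over all genes. The 2 comparisons share the control libraries, and the 10 genes are not independent of each other, so 10 genes in one direction are not 10 separate observations.

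**Figure D3:**
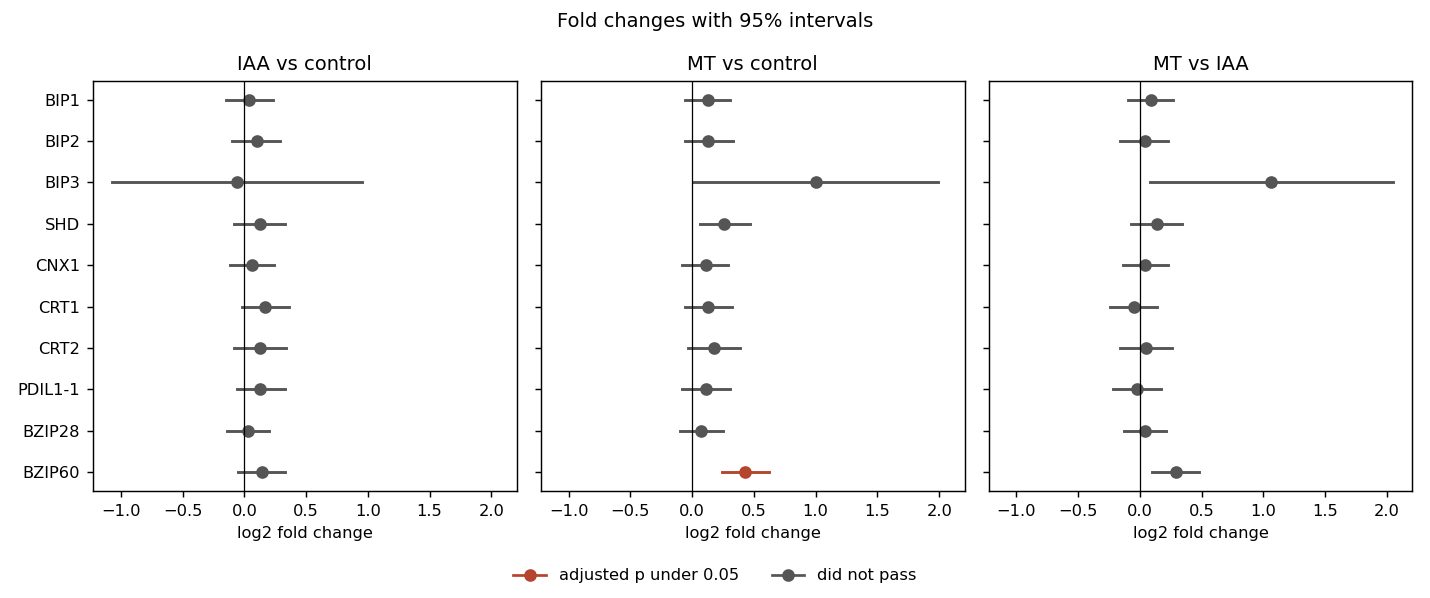
Log2 fold change (x axis) of the 10 genes in the 3 comparisons, with points for estimates and bars for 95% intervals from edgeR's fit. BZIP60 with MT, 0.43 with an interval from 0.24 to 0.62, is the 1 value that passed, and the intervals of BIP3 are the widest.

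The other genes of the pathway were read from 6 lists of 53 genes in all, every one of which was tested. With MT 1 of them rose and 0 fell in edgeR's test, against 7.65% of all genes that passed, with IAA 0 of 53 passed, and with MT over IAA 0 of 53 passed. At an unadjusted p under 0.05 the list had 15 genes with MT, which is 28.3% beside 25.2% of all genes tested. With IAA it had 7 (13.2% beside 14.3%), and for MT over IAA 5 (9.43% beside 17.4%). DESeq2 called 6 of 51 with MT, 4 higher and 2 lower, which is 11.8% beside 14.2% of all genes. With IAA it called only NAC062, 1 of 51 (1.96% beside 3.66%). For MT over IAA it called NAC062 alone again, 1 of 49 (2.04% beside 7.12%). The median log2 fold change of the 53 genes was 0.03 with MT and 0.05 with IAA.

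The gene that rose was NAC062 (AT3G49530), a transcription factor held in the membrane that carries stress signals to the nucleus. It had 30.9 and 33.1 CPM in the control, 39.9 and 42.5 with IAA, and 60.5 and 58 with MT. The 3 groups did not overlap. With MT its log2 fold change was 0.89 ± 0.08 (adjusted p = 0.00407), and it passed with each library left out (adjusted p from 0.00797 to 0.0266). With IAA it was 0.36 ± 0.08 (adjusted p = 0.158), a value DESeq2 called (0.034). MT over IAA gave 0.52 ± 0.08 (adjusted p = 0.0697), called by DESeq2 (0.00012) and with robust empirical Bayes (0.0399).

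In the same list of 12 sensors and regulators, the median was 0.09 with MT, 1 rose, 0 fell and 11 did not pass, and 6 had an unadjusted p under 0.05. For each of the lists, the share of all genes at that p with MT was 25.2%. IRE1A (AT2G17520), a sensor that splices BZIP60 mRNA, had 82.8 and 81.1 CPM in the control and 59.9 and 68.4 with MT, a log2 fold change of -0.35 ± 0.08 (adjusted p = 0.0521). BAG7 (AT5G62390), a co-chaperone of the endoplasmic reticulum, had 255 and 274 CPM in the control and 200 and 226 with MT (-0.31 ± 0.09, 0.0925). DESeq2 called IRE1A and BAG7 lower and NAC062 and NAC089 higher. IRE1B (AT5G24360), the other such sensor, had -0.08 ± 0.09 with MT (0.638). NAC103 (AT5G64060), which BZIP60 is known to induce, had 1.43 and 1.15 CPM in the control and 2.21 and 2.16 with MT (0.76 ± 0.26, adjusted p = 0.133). Here the MT libraries were alike, whereas for BIP3 they were not. NAC103 also had low counts, 43 to 85 a library, and did not pass. NAC089 (AT5G22290), a further NAC factor held in the membrane, had 0.64 ± 0.16 with MT (adjusted p = 0.0589). TIN1 (AT5G64510), named for its induction by tunicamycin, an agent that blocks protein glycosylation, had 0.587 and 0.643 CPM in the control, 1.04 and 1.35 with IAA, and 1.30 and 0.938 with MT. Its counts were low, 21 to 64 a library, and its values were 0.95 ± 0.36 with IAA (adjusted p = 0.31) and 0.86 ± 0.36 with MT (0.20). S1P (AT5G19660), a protease reported to cut BZIP28, had -0.21 ± 0.08 with either treatment (adjusted p = 0.147 with MT and 0.296 with IAA).

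In the list of 6 J proteins and BiP partners 0 passed with MT, the median was 0.24, and 4 had an unadjusted p under 0.05. ERDJ3B (AT3G62600), a J protein that works with BiP, had the smallest p with MT, from 74.3 and 68.3 CPM in the control to 86.1 and 87.7 (0.29 ± 0.07, adjusted p = 0.0655), a value DESeq2 called. Of 6 genes of lectin chaperones and glycan control 0 passed, 2 had an unadjusted p under 0.05, and the median was 0.10. EBS1 (AT1G71220), which puts a glucose back on misfolded glycoproteins so that calreticulin binds them again, had 122 and 118 CPM in the control and 161 and 144 with MT (0.35 ± 0.09, adjusted p = 0.0737), and DESeq2 called it too. Of 11 disulfide isomerases and oxidases 0 passed, also with DESeq2, 2 had an unadjusted p under 0.05, and the median was 0.11. PDIL1-2 (AT1G77510), a close relative of PDIL1-1, had 62 and 60 CPM in the control and 69.1 and 84.1 with MT (0.33 ± 0.10, adjusted p = 0.103). In these 3 lists the MT libraries of the named genes lay above the control libraries, as in 27.8% of all genes tested. Each was named for the smallest p with MT in its list, so this gap was largely given by the choice. In the same lists the MT libraries of ERDJ2A, RSW3 and PDIL1-6 lay below the control libraries.

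Degradation and import genes had medians near that of all genes. Of 9 genes of degradation from the endoplasmic reticulum 0 passed with MT, also with DESeq2, 1 had an unadjusted p under 0.05, and the median was -0.06. Only 2 of these 9 had a log2 fold change above 0 with MT, beside 50.2% of all genes. UBC32 (AT3G17000), a ubiquitin-conjugating enzyme, had -0.22 ± 0.08 (adjusted p = 0.132). Of 9 genes of translocation and glycan transfer 0 passed, also with DESeq2, 0 had an unadjusted p under 0.05, 5 were above 0, and the median was 0.02. DAD2 (AT2G35520), a subunit of the glycan transferase, had 0.28 ± 0.14 (0.272).

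**Figure D4:**
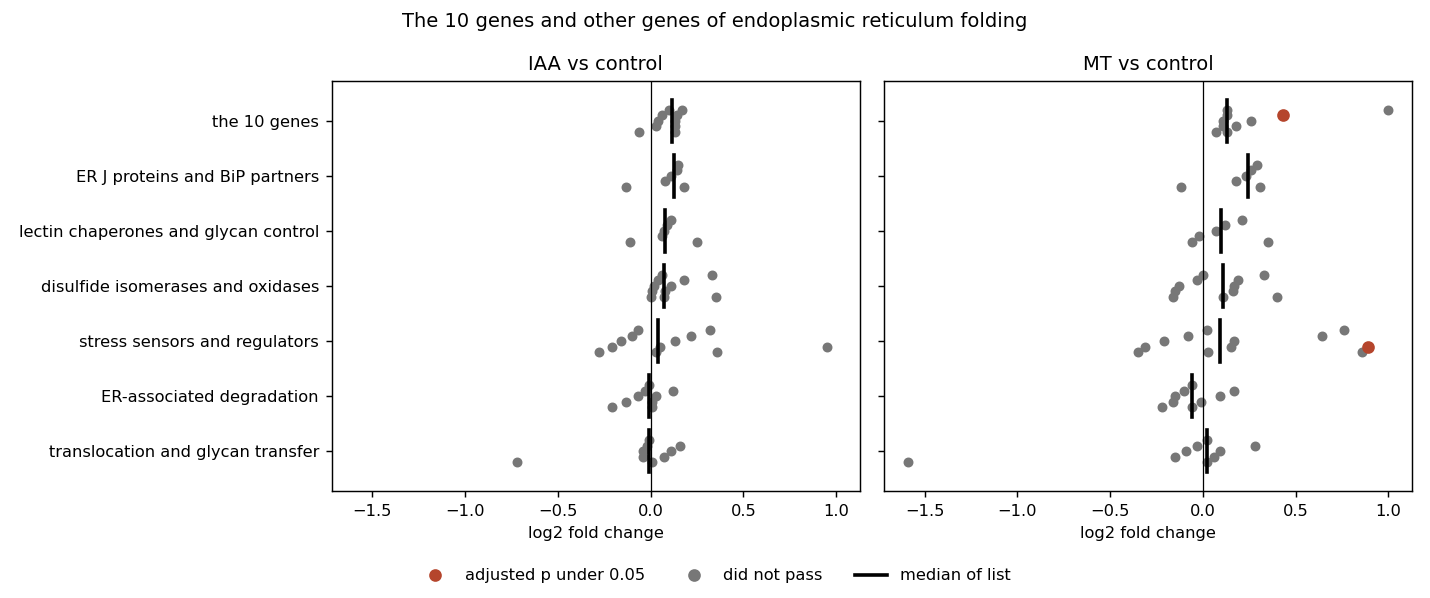
Log2 fold change (x axis) with IAA and with MT of the 10 genes and of the 6 lists of other pathway genes, 1 point per gene, with black bars for each list's median. BZIP60 (0.43) and NAC062 (0.89) with MT are the values that passed.

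Across the 6 libraries log2 CPM of BIP2 correlated with the other members at Pearson's r from 0.561 (BIP3) to 0.969 (CRT2). All genes were read in the same libraries, which differ in depth and treatment, so differences between groups enter each r. Among 13328 other genes whose mean reached 10 CPM, those most like BIP2 were AT5G26680 (r = 0.9997), AT1G77030 (0.9974), the flavonoid hydroxylase gene TT7 (AT5G07990, 0.9941), AT5G04600 (0.9937) and MET18 (AT5G48120, 0.9926). With 6 libraries this ranking is a description only.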

How the data were processed

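RNA was sequenced in 6 libraries, 2 per group, grouped by the sample titles. The deposited values are raw read counts per gene. The submitters' processing notes name HTSeq (0.6.1), DESeq (1.18.0), TopHat2 (2.0.12) and Bowtie2 (2.2.3). The settings, genome build and strand option were not given in the sources used here. Replicates differed by more than counting noise (chi-square over degrees of freedom 25.6 to 32.8), so none was taken for a library deposited more than once. This does not show that they are separate biological samples.

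Counts were analysed with edgeR 4.0.16 in R 4.3.3: filterByExpr by group, TMM factors, and quasi-likelihood tests in 1 fit of the 6 libraries, with group as sole covariate (3 residual degrees of freedom, common biological coefficient of variation 16.1%), two-sided, with Benjamini-Hochberg adjustment over 21355 genes and a threshold of 0.05. The fitting code was tested on simulated data. SE and 95% intervals come from the F statistic. Alternatives included DESeq2 1.42.0, other scalings, a replicate block and each library left out. Symbols, exon lengths and sequences are from RefSeq TAIR10.1; coding sequences were aligned with Biopython 1.88.

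The members, lists and tests were chosen with earlier results of these data known. Named were all members, called genes of each list, otherwise its gene with the smallest p with MT, and the 5 genes most like BIP2. IRE1A, IRE1B, NAC103, NAC089, TIN1, S1P and BAG7 were named after their values were seen.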

Additional observations from a re-analysis of the deposited data

How the results depend on the processing

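BZIP60 passed with MT in the main test and with other scalings, no filter, DESeq2, robust empirical Bayes, only the groups compared in the fit, the replicate number as a block and either IAA library left out. The number of the 10 genes called with MT was 2 with DESeq2, adding SHD, and 0 to 1 with a library left out. Replicate numbers came with deviations that correlated between groups at r from 0.00738 to 0.079, so libraries were not treated as pairs. With the number as a block BZIP60 had 0.43 (adjusted p = 0.0444), and the block gave 48 genes with IAA, 1325 with MT and 12 with MT over IAA.

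Over all genes, the count called with IAA, 71, was 768 with DESeq2, 130 with robust empirical Bayes, 125 with only the groups compared, and 15 to 113 with a library left out. With MT it was 1633, and 2905 with DESeq2 and 493 to 1300 with a library left out. For MT over IAA it was 37, and 76 without the filter, 1225 with DESeq2, 142 with robust empirical Bayes, 6 with only the groups compared, 6 to 340 with a library left out and 17 without scaling factors, a setting added after seeing the data. The counts with a library left out went both ways: 109 and 113 with IAA without an MT library, and 340 for MT over IAA without MT replicate 2. The cause was not tested for any of these settings.

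Signs turned in values near 0: BIP3 with IAA ran from -0.14 to 0.02 with a library left out, and without scaling factors BIP2 (-0.01), CNX1 (-0.0043) and BZIP28 (-0.0053) were lower with MT than IAA. Where 1 library was left out of a group, the lone sample was assumed to vary like the others.

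BIP3 rests on 40 to 112 counts a library, and intervals cover these samples only.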
